A study of Homo sapiens with 9 samples.

Results

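The genes described here are 6 chemokines, CXCL1, CXCL2, CXCL3, CXCL5, CXCL8 and CCL20, and 4 genes that restrain the transcription factor NF-kappaB, namely NFKBIA, TNFAIP3, NKIRAS1 and NKIRAS2. They were taken by name, and their members are all probe sets that the platform annotation assigns to a single one of these symbols. They are 10 of the 19775 genes with such a probe set on the array and hold 18 of the 54613 probe sets tested, and each of the 10 had at least 1. RNA came from Huh7, an established human hepatocarcinoma line, so a single line stands for the hepatocyte. The 3 groups of 3 arrays each were transfected with scramble siRNA, with siRNA against the subunits of serine palmitoyltransferase (SPTLC123) or with siRNA against DEGS1, and the titles call the arrays of a group biological replicates. All groups, controls included, received siRNA at a final concentration of 20 nM with a lipid reagent and, later, a conditioned medium of reduced serum. The sample descriptions give 72 h after transfection, whereas the treatment protocol has the conditioned medium added at 72 h and harvest a further 24 h later. Nothing in the labels says how far the replicates were handled apart, so p-values measure the spread between these arrays.

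Serine palmitoyltransferase starts the synthesis of sphingolipids, and DEGS1 encodes the desaturase that turns dihydroceramide into ceramide, so the siRNAs act on an early and on a late step of a single pathway. NF-kappaB dimers are held in the cytoplasm by inhibitor proteins, of which IkappaBalpha, the product of NFKBIA, is the best known. Cytokines such as TNF and IL-1 lead to kinase-driven loss of the inhibitor, and the freed factor switches on chemokine genes together with NFKBIA and TNFAIP3, whose products then shut the signal off. NKIRAS1 and NKIRAS2 encode the small kappaB-Ras proteins, which bind the inhibitor complexes and slow their degradation. CXCL1, CXCL2, CXCL3, CXCL5 and CXCL8 attract neutrophils through CXCR2, and CXCL8 also acts through CXCR1. CCL20 attracts lymphocytes and immature dendritic cells through CCR6.

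The promoters of these genes are shown first because NF-kappaB binds short kappaB elements near the start of many of its targets. Each RefSeq window held 250 bases before and 50 after an annotated start in GRCh38.p14, and all 10 genes were found in the table, with 2 starts each for NKIRAS1 and NKIRAS2. The pattern GGNNNTTCC was searched on both strands, the other strand reading GGAANNNCC. In the lines below, each 60-base stretch from -100 to -41 relative to the start is given 5′ to 3′ on the strand of the gene, and capitals mark a match on either strand. Overlapping or same-place matches on both strands share their capitals. NKIRAS1 is included because its RNA differed most among the groups. CXCL1 lies at chr4:73869293-73869352 (plus strand), CXCL2 at chr4:74099236-74099295 (minus), CXCL3 at chr4:74038730-74038789 (minus), CXCL5 at chr4:73998718-73998777 (minus) and CXCL8 at chr4:73740469-73740528 (plus). The stretch of CCL20 is chr2:227813742-227813801 (plus), that of NFKBIA chr14:35404790-35404849 (minus), that of TNFAIP3 chr6:137867159-137867218 (plus) and that of NKIRAS1, at start 1, chr3:23917096-23917155 (minus).
CXCL1: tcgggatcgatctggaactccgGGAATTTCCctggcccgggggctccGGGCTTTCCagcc
CXCL2: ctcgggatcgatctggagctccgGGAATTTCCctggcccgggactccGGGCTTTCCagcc
CXCL3: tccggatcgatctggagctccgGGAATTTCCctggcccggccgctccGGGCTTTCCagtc
CXCL5: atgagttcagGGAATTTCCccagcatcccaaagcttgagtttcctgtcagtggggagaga
CXCL8: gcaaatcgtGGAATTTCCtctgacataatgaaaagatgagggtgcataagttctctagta
CCL20: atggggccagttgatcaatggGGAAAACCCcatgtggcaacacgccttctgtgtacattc
NFKBIA: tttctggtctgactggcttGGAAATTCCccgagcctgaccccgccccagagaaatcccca
TNFAIP3: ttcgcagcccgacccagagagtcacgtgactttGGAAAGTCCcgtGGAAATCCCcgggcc
NKIRAS1: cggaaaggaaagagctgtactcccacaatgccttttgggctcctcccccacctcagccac

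All 6 chemokine genes, NFKBIA and TNFAIP3 held at least 1 match between -100 and -41, that is 8 of the 10 genes. Among all 35116 promoter windows of the table, 20.1% held the pattern somewhere and 4.27% held it within these 60 bases. CXCL1, CXCL2 and CXCL3 each carried 2 matches, of which the upstream one was the same 9 letters, GGAATTTCC, in all 3 genes, and CXCL5 and CXCL8 carried these letters too. The whole 300-base windows of CXCL1 and CXCL3 were 82.5% identical, those of CXCL2 and CXCL3 73.8% and those of CXCL1 and CXCL2 71.9%, against 41.6% to 55.7% for the other 42 pairs of the genes' windows. NFKBIA had a further match that began at -242. Neither window of NKIRAS1 or of NKIRAS2 held these letters, which says nothing of the factor beyond these windows. The 60-base stretch encloses the members' matches nearest the start, which began at -91 to -53. The genes were listed as targets or regulators of NF-kappaB, and the windows of CXCL1, CXCL2 and CXCL3 are alike. Setting the 8 genes beside the share of all windows is therefore no test. The matches are descriptions of sequence, and binding was not measured.

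**Figure D1:**
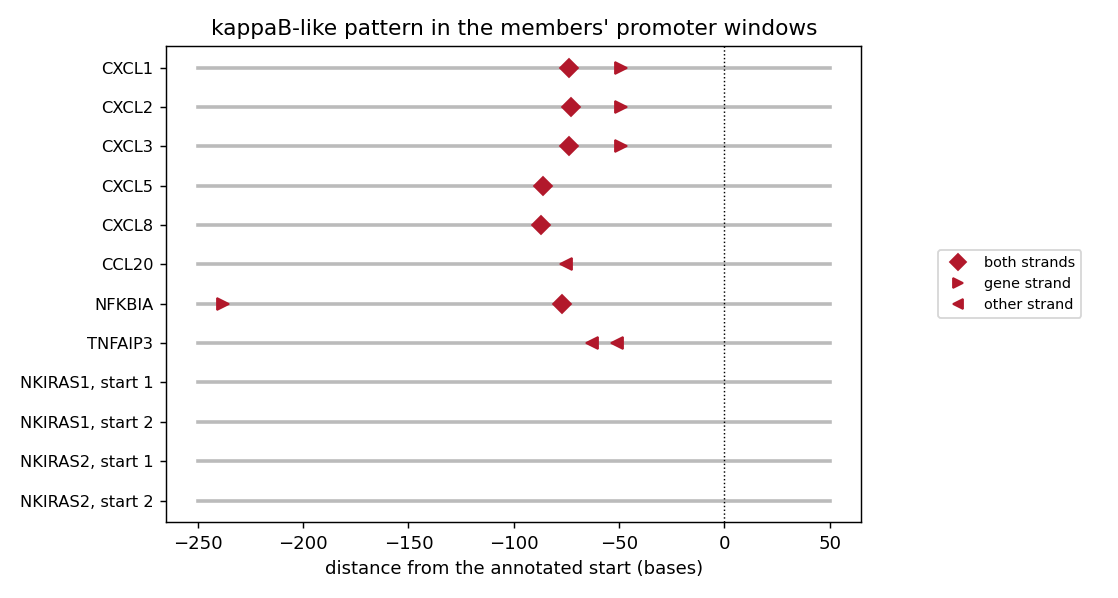
Position of each match to the kappaB-like pattern in the 300-base promoter windows of the 10 genes, in bases from the annotated start. Symbols give the strand of the match. Each of 8 genes has at least 1 match between -100 and -41, NFKBIA has a further match at -242, and the windows of NKIRAS1 and NKIRAS2 have none.

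The strongest change was in NKIRAS1. Its RNA rose with SPTLC123 siRNA and fell with DEGS1 siRNA, so that its level with DEGS1 siRNA was 32.6% of that with SPTLC123 siRNA. NFKBIA rose with both siRNAs, 1.57-fold and 1.40-fold. CXCL3 was higher after DEGS1 siRNA than in either other group, CXCL2 was higher and CXCL5 lower after DEGS1 than after SPTLC123 siRNA, and no other probe set of the 10 genes passed the test. The test was limma's moderated test with 1 mean per group over all 9 arrays, with p-values adjusted by Benjamini-Hochberg over the 54613 probe sets, and a probe set is said to have changed, risen or fallen where the adjusted p was under 0.05. Only the SPTLC123 rises of NKIRAS1 and NFKBIA and the NKIRAS1 difference between the siRNAs passed under all 22 alternative settings. The other calls were lost in some of them.

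Against scramble, 2 of the 18 probe sets (11.1%) changed with SPTLC123 siRNA, both upward, where 4.52% of all probe sets changed and 2.63% rose. With DEGS1 siRNA 3 of 18 (16.7%) changed, 2 of them upward and 1 downward, against 3.42% of all probe sets, 1.82% upward and 1.6% downward. Between DEGS1 and SPTLC123, 4 of 18 (22.2%) differed, 2 in each direction, against 3.69% of all, 1.58% higher and 2.11% lower. These shares over all include the dim probe sets, which passed less often. Fitted alone, the 27306 probe sets with a mean above the array's median gave 2841, 2424 and 2320 calls in the 3 comparisons. The members' 14 among them gave 3, 3 and 5. The groups did not overlap for 4, 5 and 6 of the 18 probe sets in these comparisons, or 22.2%, 27.8% and 33.3%, and the shares over all probe sets were 22.4%, 21.3% and 19.8%. The median log2 change of the 18 was 0.07, 0.10 and 0.09, beside -0.02, -0.00 and 0.02 over all probe sets. Since the genes were chosen with results of these arrays known, the counts describe these genes and are no test of the group. Both comparisons against scramble share the 3 control arrays.

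A mean above 4.87 on the log2 scale of the deposited intensity, the median over the whole array, was found for 14 of the 18 probe sets. The 4 dimmer ones were 1569203_at and 230101_at of CXCL2, 207852_at of CXCL5 and 231699_at of NFKBIA, and none of them changed in any comparison. A change can be compressed at dim probe sets, which was not measured here. Levels are given per probe set, since probes bind with different strength and a level of a gene is not comparable with that of another. In the names, _x_at marks a probe set with probes that can also bind other transcripts and _s_at one that reads several transcripts of a gene or family. The first applies to 209774_x_at of CXCL2, 214974_x_at of CXCL5 and 202859_x_at of CXCL8. The second applies to 215101_s_at of CXCL5, 211506_s_at of CXCL8, 201502_s_at of NFKBIA, both probe sets of TNFAIP3 and 222105_s_at of NKIRAS2. Changes measured at any of these can include signal from other transcripts.

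**Figure D2:**
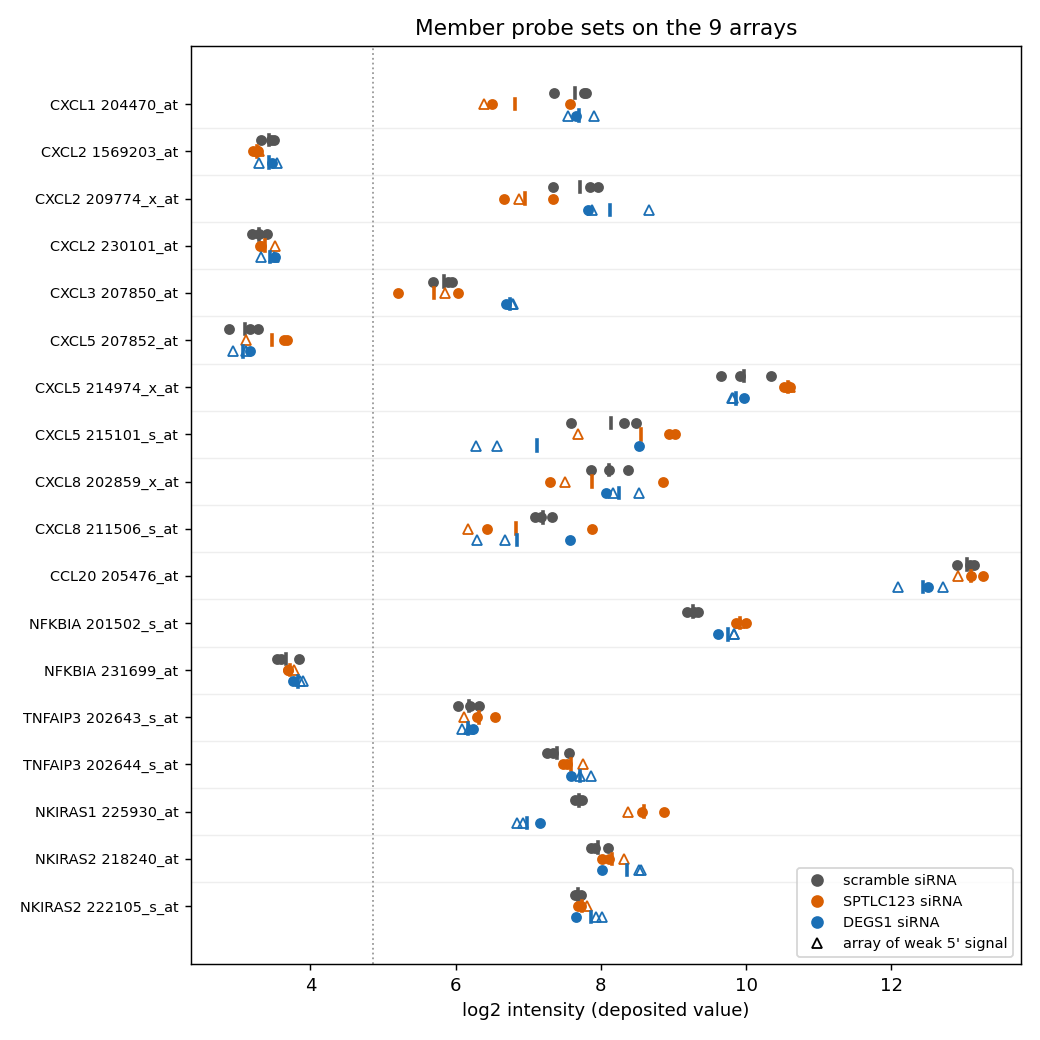
Log2 of the deposited intensity of the 18 probe sets on each of the 9 arrays, coloured by siRNA, with triangles for the 3 arrays of weak 5′ signal, short bars for group means and a dotted line at the array's median of 4.87. The 3 groups of NKIRAS1 do not overlap, whereas those of CXCL8 and of TNFAIP3 202643_s_at do.

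DEGS1 fell by 3.73 ± 0.16 (log2, SE, 207431_s_at) and 3.23 ± 0.11 (209250_at) on the arrays labelled with its siRNA. With SPTLC123 siRNA all 3 probe sets of SPTLC1 fell, with -2.27 ± 0.12 at 202277_at. Of the 5 probe sets of SPTLC2, 203127_s_at and 225095_at fell, with -1.05 ± 0.11 and -1.02 ± 0.17. The other SPTLC2 probe sets did not pass, with -1.33 ± 0.33 at 216202_s_at (adjusted p = 0.0576), -0.24 ± 0.24 at 203128_at and 0.06 ± 0.13 at 216203_at, and a further subunit was not analysed here. With DEGS1 siRNA the SPTLC1 probe set 1554053_at fell too, with -0.52 ± 0.10 (adjusted p = 0.0225), while no other probe set of SPTLC1 or SPTLC2 passed. Of 12 listed hepatocyte markers, 11 had a probe set and all 11 lay above the median, albumin and alpha-fetoprotein among them. Their summed intensity ran from 116800 to 124800 on the scramble arrays, from 96220 to 102600 on the SPTLC123 arrays and from 103200 to 110800 on the DEGS1 arrays. Among other cell types, 3 of 7 measured leukocyte markers lay above the median, with PTPRC, CD14, CD163 and CD3E not among those, and so did 2 of 6 endothelial, 3 of 7 stellate cell and 4 of 4 cholangiocyte markers. The leukocyte sum was 6126 to 7224, 7958 to 8841 and 5908 to 6711 in the 3 groups in the same order, of which most came from LYZ, and that of the cholangiocyte markers 2875 to 3600, 3504 to 5111 and 3546 to 5153. All arrays were of the single line Huh7, so the names of these lists do not stand for separate cell types in the cultures. The part of these shifts in the changes below was not tested. SPTLC123 replicate 3 and DEGS1 replicates 2 and 3 stood apart in the control probe sets that compare the 3′ and 5′ ends of a transcript. The actin control's 3′ minus 5′ log2 difference was 1.15 to 1.31 there against 0.40 to 0.56 on the other 6 arrays, and that of GAPDH was 0.25 to 0.40 against -0.09 to 0.01. No scramble array was among these 3, so each DEGS1 value given for a member probe set above the median is also given without them. Without them DEGS1 has 1 array, which is then assumed to vary like the other groups.

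NKIRAS1, the gene of kappaB-Ras1, had a single probe set, 225930_at. Its log2 level on the scramble arrays, replicates 1 to 3 in turn here and throughout, was 7.64, 7.70 and 7.74. It was 8.86, 8.56 and 8.37 on the SPTLC123 arrays and 7.16, 6.85 and 6.93 on the DEGS1 arrays. Every SPTLC123 array lay above, and every DEGS1 array below, all 3 scramble arrays. The rise with SPTLC123 siRNA was 0.90 ± 0.13 (adjusted p = 0.00648), a fold of 1.87. With DEGS1 siRNA it fell by 0.72 ± 0.13 (adjusted p = 0.0249), to 60.9% of the scramble level. The direct comparison gave -1.62 ± 0.13 (adjusted p = 0.000552, 95% interval -1.92 to -1.31). The rise with SPTLC123 siRNA and the difference between the siRNAs kept their direction and passed the test under all 22 alternative settings, with changes of 0.77 to 1.02 and of -1.75 to -1.49. The fall against scramble did not pass without any 1 of the scramble arrays or without DEGS1 replicate 2 or 3, where it was -0.74 to -0.65 with adjusted p from 0.0667 to 0.109. Fitted without the 3 arrays of weak 5′ signal, the changes were 1.02 (adjusted p = 0.00497), -0.53 (0.263) and -1.55 (0.0119).

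NKIRAS2, the gene of the related kappaB-Ras2, did not change by the test. Its brighter probe set, 218240_at, read 7.92, 8.09 and 7.87 with scramble, 8.11, 8.02 and 8.32 with SPTLC123 and 8.01, 8.53 and 8.55 with DEGS1 siRNA. The groups overlapped, and the 2 high DEGS1 arrays were those of weak 5′ signal. The changes against scramble were 0.19 ± 0.15 (adjusted p = 0.643) and 0.41 ± 0.15 (adjusted p = 0.196, 95% interval 0.06 to 0.75). The second probe set, 222105_s_at, gave 0.06 ± 0.10 and 0.19 ± 0.10, the latter -0.02 without the 3 arrays of weak 5′ signal. With array weights, or without DEGS1 replicate 1, the DEGS1 value of 218240_at passed the test, and without the 3 arrays of weak 5′ signal it was 0.05. A call for NKIRAS2 therefore turned on how these arrays were treated.

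NFKBIA, the feedback inhibitor, was higher with both siRNAs. Its bright probe set, 201502_s_at, stood at 9.33, 9.28 and 9.18 on the scramble arrays, at 9.99, 9.86 and 9.91 on the SPTLC123 arrays and at 9.61, 9.84 and 9.83 on the DEGS1 arrays. All 6 knockdown arrays lay above all 3 controls, with DEGS1 replicate 1 the lowest of the 6. NFKBIA rose by 0.65 ± 0.09 (adjusted p = 0.00537) with SPTLC123 siRNA and by 0.49 ± 0.09 (adjusted p = 0.0263) with DEGS1 siRNA. The siRNAs differed by -0.16 ± 0.09 (adjusted p = 0.397), with a 95% interval from -0.38 to 0.05 that leaves room for a lower rise with DEGS1. The SPTLC123 rise passed the test under all 22 alternatives, at 0.36 to 0.69, the lowest being the mean with the dim second probe set. The DEGS1 rise did not pass in 10 of 22, among them each fit without 1 scramble array or without DEGS1 replicate 2 or 3, where the change was 0.45 to 0.52 with adjusted p from 0.0596 to 0.119. It was 0.34 (adjusted p = 0.446) without the 3 arrays of weak 5′ signal, where the siRNAs differed by -0.32 (adjusted p = 0.490), and 0.41 (adjusted p = 0.0812) with the actin 3′ minus 5′ difference as a covariate. The dim probe set 231699_at stayed between 3.55 and 3.89 on all 9 arrays.

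TNFAIP3 encodes A20, the ubiquitin-editing enzyme that ends signalling from the TNF receptor. Its brighter probe set, 202644_s_at, read 7.26, 7.56 and 7.35 with scramble, 7.54, 7.47 and 7.75 with SPTLC123 and 7.59, 7.71 and 7.86 with DEGS1 siRNA. The DEGS1 arrays lay above the scramble arrays without overlap, but only just, since the closest pair read 7.59 and 7.56. The changes were 0.20 ± 0.12 (adjusted p = 0.490) and 0.33 ± 0.12 (adjusted p = 0.174, 95% interval 0.06 to 0.59), and the latter passed with array weights alone. The other probe set, 202643_s_at, lay between 6.04 and 6.54 on all arrays and gave 0.13 ± 0.12 and -0.01 ± 0.12. The DEGS1 changes were 0.20 (adjusted p = 0.763) and 0.05 (adjusted p = 0.970) without the 3 arrays of weak 5′ signal. So the 2 probe sets of TNFAIP3 gave different sizes for the DEGS1 comparison, and neither passed.

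**Figure D3:**
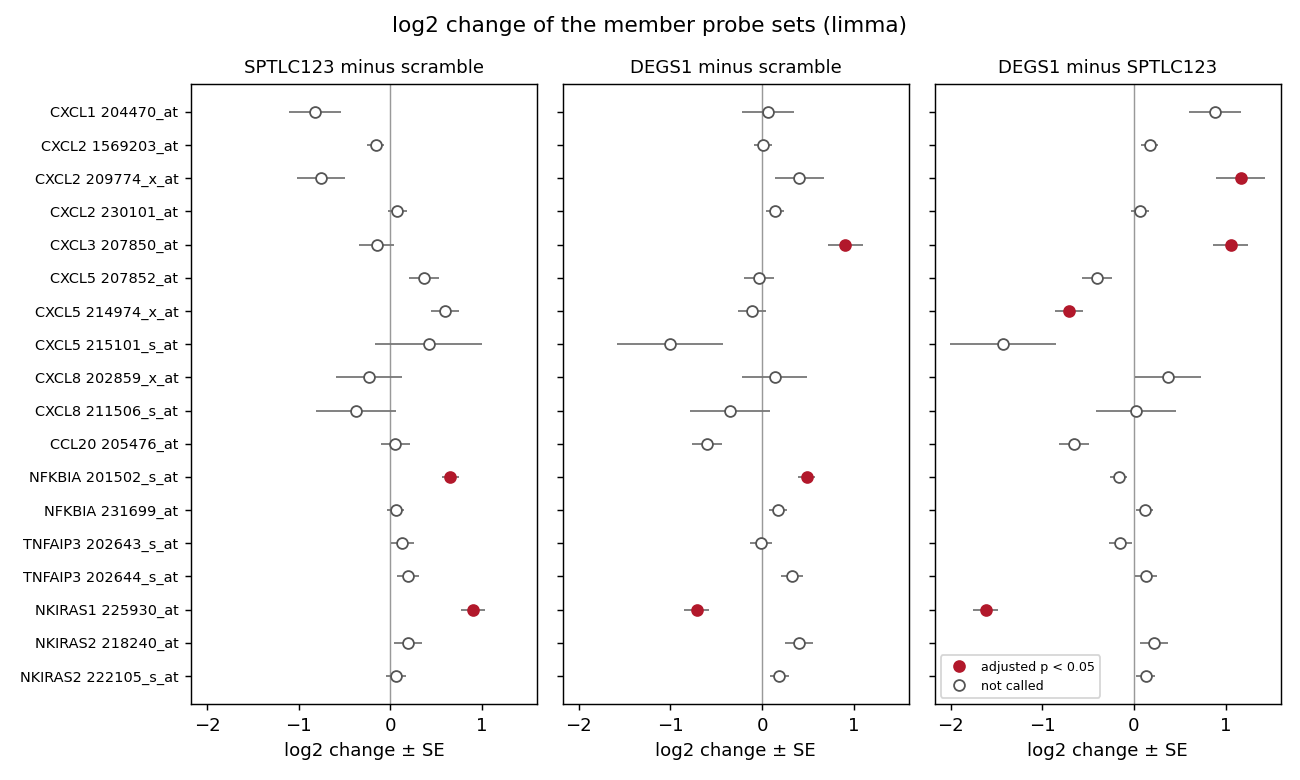
Log2 change ± SE of the 18 probe sets in the 3 comparisons, from the limma fit over all probe sets, with filled red points where the adjusted p is under 0.05. NKIRAS1 lies at 0.90, -0.72 and -1.62 and NFKBIA 201502_s_at at 0.65, 0.49 and -0.16.

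CXCL3 was higher after DEGS1 siRNA. The probe set 207850_at read 5.69, 5.95 and 5.89 on the scramble arrays, 6.04, 5.20 and 5.85 on the SPTLC123 arrays and 6.69, 6.79 and 6.77 on the DEGS1 arrays. The DEGS1 arrays lay close together and above all other 6, while SPTLC123 replicate 2 was the lowest of all. The rise was 0.91 ± 0.19 (adjusted p = 0.0369), or 1.88-fold, against scramble and 1.05 ± 0.19 (adjusted p = 0.0187) against SPTLC123, whose own change was -0.15 ± 0.19 (adjusted p = 0.807). The rise against scramble did not pass without any 1 of the scramble arrays or without DEGS1 replicate 2 or 3 (0.83 to 0.96, adjusted p 0.0930 to 0.137), and that against SPTLC123 did not pass without DEGS1 replicate 2 (1.04, adjusted p = 0.0793) or replicate 3 (1.04, adjusted p = 0.0784). Without the 3 arrays of weak 5′ signal the values were 0.85 (adjusted p = 0.347) and 1.07 (adjusted p = 0.227). With the actin 3′ minus 5′ difference as a covariate they were 0.81 (adjusted p = 0.0760) and 1.00 (adjusted p = 0.0106). The call of CXCL3 against scramble was thus lost in both fits, the first of which kept 1 DEGS1 array.

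CXCL2 separated the siRNAs from each other. The probe set 209774_x_at read 7.96, 7.84 and 7.34 with scramble, 7.34, 6.66 and 6.87 with SPTLC123 and 7.83, 8.66 and 7.88 with DEGS1 siRNA. The SPTLC123 arrays were the lowest, touching the controls at 7.34, and DEGS1 replicate 2 was the highest. DEGS1 was above SPTLC123 by 1.16 ± 0.26 (adjusted p = 0.0473), a fold of 2.24, with a 95% interval from 0.57 to 1.76. Against scramble the changes were -0.76 ± 0.26 (adjusted p = 0.177) with SPTLC123 and 0.41 ± 0.26 (adjusted p = 0.436) with DEGS1 siRNA. The call did not pass in 14 of 22 alternatives, including every fit without 1 array except that without DEGS1 replicate 1, where the change was 0.89 to 1.36 with adjusted p from 0.0588 to 0.169. It was 0.83 (adjusted p = 0.404) once the 3 arrays of weak 5′ signal were left out, and the DEGS1 change against scramble was then 0.11 (adjusted p = 0.963). The other probe sets of CXCL2, both dim, lay between 3.19 and 3.55 on every array, and the mean of the gene's 3 probe sets gave 0.47 (adjusted p = 0.0255).

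CXCL1 had a like order of groups but did not pass. Its probe set 204470_at read 7.77, 7.80 and 7.35 with scramble, 7.58, 6.50 and 6.39 with SPTLC123 and 7.66, 7.91 and 7.55 with DEGS1 siRNA. Replicates 2 and 3 of SPTLC123 were about 1 log2 unit below replicate 1, which lay within the range of the controls. The changes were -0.82 ± 0.29 (adjusted p = 0.176, 95% interval -1.46 to -0.17) and 0.06 ± 0.29 (adjusted p = 0.935), and the siRNAs differed by 0.88 ± 0.29 (adjusted p = 0.147). Without SPTLC123 replicate 1 the SPTLC123 change was -1.20 (adjusted p = 0.0129) and the difference of the siRNAs 1.26 (adjusted p = 0.0144). The result for CXCL1 turned on that array. A fit without the 3 arrays of weak 5′ signal gave 0.02 (adjusted p = 0.997) for DEGS1 siRNA and 0.62 (adjusted p = 0.649) for the difference of the siRNAs.

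CXCL5 was highest after SPTLC123 siRNA. Its probe set 214974_x_at read 9.66, 10.35 and 9.92 with scramble, 10.60, 10.51 and 10.61 with SPTLC123 and 9.97, 9.80 and 9.82 with DEGS1 siRNA. The SPTLC123 arrays lay close together and above all other arrays, and scramble replicate 2 was the closest to them. DEGS1 was below SPTLC123 by a log2 difference of -0.71 ± 0.15 (adjusted p = 0.0411), whereas the change with SPTLC123 siRNA against scramble was 0.60 ± 0.15 (adjusted p = 0.0681) and that with DEGS1 siRNA -0.11 ± 0.15 (adjusted p = 0.753). The difference of the siRNAs did not pass in 11 of 22 alternatives. Among these were the fits without scramble replicate 3, any SPTLC123 array, or DEGS1 replicate 2 or 3 (-0.74 to -0.68, adjusted p 0.0740 to 0.153). Leaving out the 3 arrays of weak 5′ signal gave -0.59 (adjusted p = 0.461), and -0.01 (adjusted p = 0.999) for DEGS1 siRNA against scramble. The change with SPTLC123 against scramble passed without scramble replicate 2, at 0.78 (adjusted p = 0.0125).

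Another CXCL5 probe set, 215101_s_at, spread far more widely. It read 7.59, 8.32 and 8.49 with scramble, 9.02, 8.94 and 7.69 with SPTLC123 and 8.52, 6.57 and 6.28 with DEGS1 siRNA. The 2 lowest values and the lowest SPTLC123 value were those of the arrays of weak 5′ signal. The changes against scramble were 0.42 ± 0.58 (adjusted p = 0.824) and -1.01 ± 0.58 (adjusted p = 0.375), and without these 3 arrays they were 0.85 (adjusted p = 0.105) and 0.39 (adjusted p = 0.778). The siRNAs differed by -1.42 ± 0.58 (adjusted p = 0.244), and by -0.46 (adjusted p = 0.693) without them. Without DEGS1 replicate 1 the DEGS1 value was -1.71 (adjusted p = 0.0207) and the difference of the siRNAs -2.12 (adjusted p = 0.0120), so the direction for CXCL5 at this probe set depended on which DEGS1 arrays were kept. The third probe set, 207852_at, was dim at 2.87 to 3.68.

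CXCL8, also known as interleukin-8, did not pass the test in any comparison. The probe set 202859_x_at read 8.38, 8.11 and 7.86 with scramble, 8.85, 7.29 and 7.51 with SPTLC123 and 8.07, 8.53 and 8.16 with DEGS1 siRNA. SPTLC123 replicate 1 was the highest of the 9 and its other replicates the lowest. The changes were -0.23 ± 0.36 (adjusted p = 0.844, 95% interval -1.03 to 0.57) and 0.14 ± 0.36 (adjusted p = 0.875, -0.66 to 0.94), wide enough to hold changes like those of CXCL2. The second probe set, 211506_s_at, read 7.32, 7.18 and 7.10 with scramble, 7.88, 6.43 and 6.17 with SPTLC123 and 7.57, 6.68 and 6.29 with DEGS1 siRNA, with changes of -0.37 ± 0.44 and -0.35 ± 0.44. In all 3 groups, scramble included, its replicate 1 was the highest. The siRNAs differed by 0.37 ± 0.36 and 0.02 ± 0.44 at the 2 probe sets. Without the 3 arrays of weak 5′ signal the DEGS1 change was -0.04 at 202859_x_at and 0.37 at 211506_s_at, and the differences of the siRNAs 0.00 and 0.41.

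CCL20 was lower on the DEGS1 arrays without passing the test. Its probe set 205476_at read 13.13, 13.09 and 12.90 with scramble, 13.26, 13.10 and 12.92 with SPTLC123 and 12.51, 12.71 and 12.09 with DEGS1 siRNA. Each DEGS1 array lay below the other 6, and the scramble and SPTLC123 arrays covered nearly the same range. The differences were -0.60 ± 0.16 against scramble (adjusted p = 0.0826, 95% interval -0.97 to -0.24) and -0.66 ± 0.16 against SPTLC123 (adjusted p = 0.0625, -1.02 to -0.29). SPTLC123 siRNA gave 0.05 ± 0.16 (-0.31 to 0.42). Some alternatives passed, 5 of 22 against scramble and 6 of 22 against SPTLC123, among them the fit without DEGS1 replicate 1 (-0.64, adjusted p = 0.0440, and -0.69, adjusted p = 0.0386). Without the 3 arrays of weak 5′ signal CCL20 gave -0.53 (adjusted p = 0.242) and -0.67 (adjusted p = 0.142).

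Beside the control probe sets, pairs of probe sets of the same gene also set these 3 arrays apart. For CXCL5 the log2 difference 214974_x_at minus 215101_s_at was 1.43 to 2.07 on the other 6 arrays and 2.92 to 3.54 on these 3. For CXCL8, 202859_x_at minus 211506_s_at was 0.50 to 1.05 against 1.34 to 1.87. The difference of the TNFAIP3 pair, 202644_s_at minus 202643_s_at, was 1.00 to 1.36 against 1.62 to 1.67, and that of the NKIRAS2 pair, 218240_at minus 222105_s_at, 0.19 to 0.45 against 0.51 to 0.59. All 4 genes with a pair above the median thus had a wider gap on these arrays, without overlap. Among 6053 genes with such a pair, the gap of 41.2% was without overlap, in either direction. How much of the probe-set levels came from this was not tested.

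**Figure D4:**
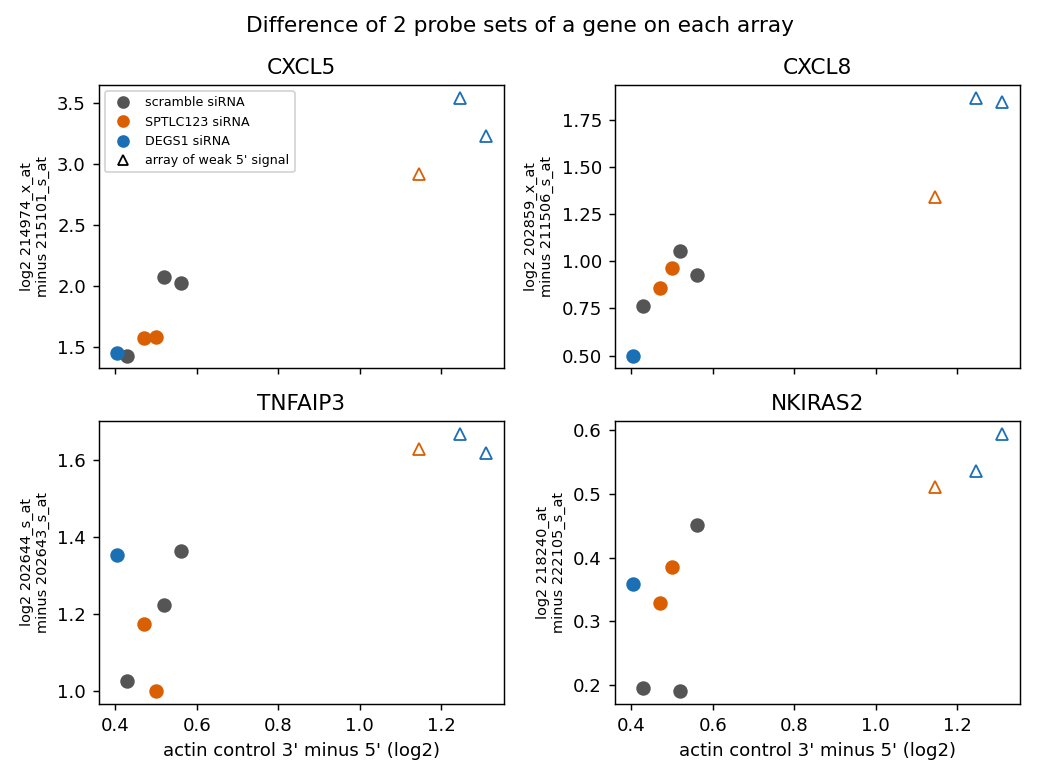
Log2 difference between the 2 brighter probe sets of CXCL5, CXCL8, TNFAIP3 and NKIRAS2 on each array, against the actin control's 3′ minus 5′ log2 difference. Colours give the siRNA. The 3 arrays drawn as triangles lie above the other 6 in each panel.

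CXCL8, CXCL1, CXCL5, CXCL3 and CXCL2 lie in one cluster of 9 protein-coding genes on chromosome 4. Their order along it is CXCL8, CXCL6, PF4V1, CXCL1, PF4, PPBP, CXCL5, CXCL3 and CXCL2. Those that are not members all lay below the array's median, where a change can be compressed. CXCL6, another neutrophil chemokine, fell with both siRNAs, by 0.77 ± 0.10 (adjusted p = 0.00329) and 0.53 ± 0.10 (adjusted p = 0.0251), the latter -0.52 (adjusted p = 0.225) without the 3 arrays of weak 5′ signal. The mean log2 level of CXCL6 was 3.82 with scramble, 3.05 with SPTLC123 and 3.30 with DEGS1 siRNA, so its fall rests on dim signal. The platelet chemokine genes PF4, PF4V1 and PPBP did not pass in any comparison, with values from -0.29 to 0.17. CXCL3 and CXCL2 lie next to each other, and their changes with DEGS1 siRNA were 0.91 ± 0.19 and 0.41 ± 0.26. At CXCL5, next to CXCL3 on the other side, the change at 214974_x_at was -0.11 ± 0.15. Of these 3 values, that of CXCL3 alone passed the test.

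**Figure D5:**
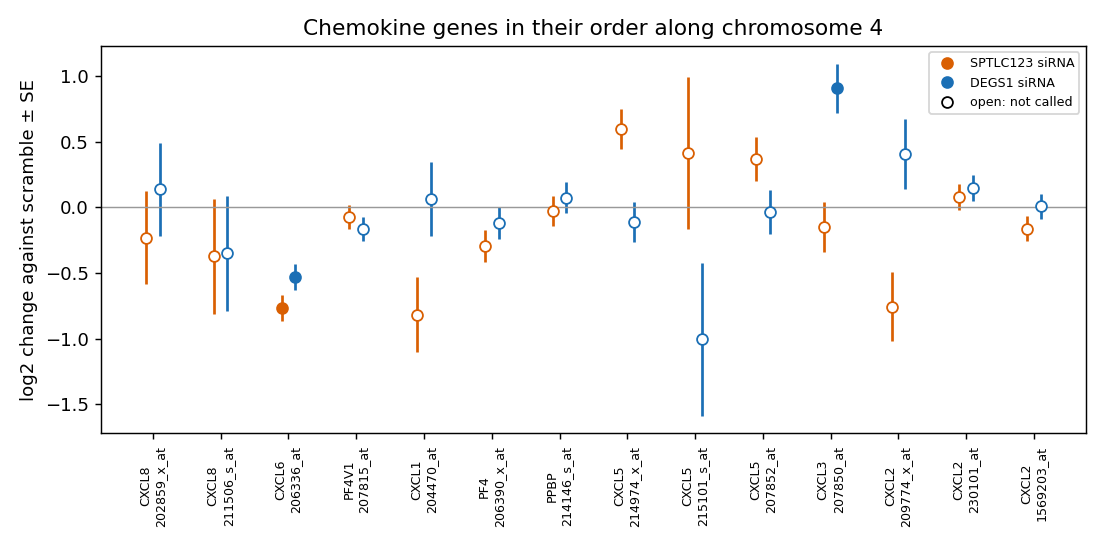
Log2 change ± SE against scramble of the chemokine probe sets in gene order along chromosome 4, orange for SPTLC123 and blue for DEGS1 siRNA, with open points where the test was not passed. CXCL6, dim and below the array's median, changed with both siRNAs and CXCL3 with DEGS1 siRNA.

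The wider pathway was read from 8 lists with 149 genes, of which 135 had a probe set assigned to a single symbol, 288 such probe sets in all. With SPTLC123 siRNA 8 of these rose and 9 fell, which is 5.9% where 4.52% of all probe sets changed. With DEGS1 siRNA 4 rose and 9 fell (4.51%, against 3.42%), and between the siRNAs 5 were higher and 11 lower with DEGS1 (5.56%, against 3.69%). The shares over all probe sets were not matched to the lists for brightness. The median change of the lists was -0.02, -0.03 and 0.00. Without the 3 arrays of weak 5′ signal 13 of the 17, 0 of the 13 and 3 of the 16 calls still passed, and all kept their sign. None of the 13 probe sets of the receptors CXCR1, CXCR2, CCR6, CXCR4 and the decoys changed by limma's test, and 1 of 13 had an unadjusted p under 0.05 in each comparison.

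Among cytokine inputs, 42 probe sets of 22 genes, 1 rose and 2 fell with SPTLC123 siRNA. IL1R1, the signalling receptor of IL-1, rose by 0.78 ± 0.10 (adjusted p = 0.00326), and the cytokine IL18 fell by 0.75 ± 0.16 (adjusted p = 0.0304), or -0.62 (adjusted p = 0.0594) without the 3 arrays of weak 5′ signal. IL1R1 was also lower with DEGS1 than with SPTLC123 siRNA, by -0.64 ± 0.10 (adjusted p = 0.0112), or -0.55 (adjusted p = 0.190) without these arrays. IL1RAP, the co-receptor, differed between its probe sets. With SPTLC123 siRNA 210233_at gave -1.45 ± 0.15 (adjusted p = 0.00125) and 205227_at -0.34 ± 0.09 (adjusted p = 0.0857), and with DEGS1 siRNA they gave 0.13 ± 0.15 and -0.78 ± 0.09 (adjusted p = 0.00446), the latter -0.68 (adjusted p = 0.11) without these 3 arrays. The probe sets of IL1RAP therefore moved apart, 1.58 and -0.44 between the siRNAs, and both differences passed, the second not without the 3 arrays of weak 5′ signal (-0.30, adjusted p = 0.528). Which transcripts they read was not analysed here.

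Adaptors and kinases, 44 probe sets of 20 genes, held 4 that rose and 1 that fell with SPTLC123 siRNA, and 2 of each with DEGS1 siRNA. CHUK, the kinase IKKalpha, had opposite changes as NKIRAS1 did, with a rise of 0.46 ± 0.09 (adjusted p = 0.0215) with SPTLC123 and a fall of 0.50 ± 0.09 (adjusted p = 0.0210) with DEGS1 siRNA. The difference between the siRNAs was -0.96 ± 0.09 (adjusted p = 0.000936), and without the 3 arrays of weak 5′ signal -0.82 (adjusted p = 0.0443), while the changes of CHUK against scramble were then 0.38 (adjusted p = 0.0730) and -0.43 (adjusted p = 0.253). TAB3, a partner of the kinase TAK1, rose by 0.66 ± 0.10 with each siRNA at 1 of its 4 probe sets, 227357_at, the DEGS1 value being 0.56 (adjusted p = 0.203) without these arrays. The other TAB3 probe sets did not pass and with DEGS1 siRNA gave -0.11, -0.21 and 0.43. MAP3K7, the gene of TAK1, rose with SPTLC123 siRNA at 2 of its 4 probe sets (0.87 ± 0.17 and 0.46 ± 0.11), and neither passed without these arrays (0.81, adjusted p = 0.0539, and 0.41, adjusted p = 0.0753). BIRC2, a ubiquitin ligase of the TNF receptor complex, fell by 0.60 ± 0.08 with SPTLC123 siRNA. IRAK2, a kinase of IL-1 signalling, fell by 0.80 ± 0.15 with DEGS1 siRNA at 1 of its 3 probe sets, and by 0.52 (adjusted p = 0.285) without these arrays. MYD88, the adaptor of IL-1 and Toll-like receptors, was 0.60 ± 0.08 higher with DEGS1 than with SPTLC123 siRNA, or 0.61 (adjusted p = 0.122) without them. TRAF3, a ubiquitin ligase that restrains the alternative NF-kappaB pathway, differed by -0.70 ± 0.11 in that comparison at 221571_at (-0.50, adjusted p = 0.209, without them) and did not pass at its other probe set. Members of this list thus moved in both directions under each siRNA.

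A list of NF-kappaB subunits, inhibitors other than NFKBIA and the regulators COMMD1 and NKAP had 23 probe sets of 11 genes. None of the subunits or inhibitors changed, and NKAP, named as an NF-kappaB activating protein, fell by 0.64 ± 0.14 (adjusted p = 0.0434) with DEGS1 siRNA, or by 0.61 (adjusted p = 0.389) without the 3 arrays of weak 5′ signal. The subunit genes NFKB1, NFKB2, RELA, RELB and REL were among those that did not pass. With SPTLC123 siRNA, and between the siRNAs, 0 of the 23 passed limma's test, with 3 and 6 at an unadjusted p under 0.05. With DEGS1 siRNA against scramble 1 of the 23 passed, and 7 had an unadjusted p under 0.05 by limma. Other negative regulators, 56 probe sets of 17 genes, held PDLIM2, which promotes the breakdown of the RELA protein. PDLIM2 fell by 1.58 ± 0.18 (adjusted p = 0.00179) and 1.01 ± 0.18 (adjusted p = 0.0193) with SPTLC123 and DEGS1 siRNA at 219165_at, while its other probe set did not pass. The brightest of the 6 probe sets of OTUD7B, the deubiquitinase Cezanne, gave 0.09 ± 0.11 and 0.15 ± 0.11 (227436_at). OTUD7B rose by 0.70 ± 0.16 and 0.87 ± 0.16 at 1 of the 6 alone, 238573_at. The DEGS1 values were -0.78 (adjusted p = 0.320) for PDLIM2 and 0.68 (adjusted p = 0.106) for OTUD7B without the 3 arrays of weak 5′ signal. RNF11, a cofactor of A20, was lower with DEGS1 than with SPTLC123 siRNA by -0.54 ± 0.10 (adjusted p = 0.0175), or -0.44 (adjusted p = 0.308) without them. TOLLIP, an inhibitory adaptor of IL-1 and Toll-like receptors, rose by 0.62 ± 0.11 with SPTLC123 siRNA at 1 of its 4, 222469_s_at. The other TOLLIP probe sets did not pass and gave -0.39 at the brightest, 217930_s_at, 0.45 at 233881_s_at and -0.03 at 237342_at.

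Other NF-kappaB target genes, 65 probe sets of 25 genes, gave 1 rise and 3 falls with SPTLC123 siRNA and 1 rise and 2 falls with DEGS1 siRNA. SOD2, the mitochondrial superoxide dismutase, had 1 probe set assigned to its symbol alone, 1566342_at. It fell by 1.99 ± 0.16 (adjusted p = 0.000365) with SPTLC123 siRNA and gave -0.10 ± 0.16 with DEGS1 siRNA. Any probe set of SOD2 shared with another symbol was not read. BIRC5, the gene of survivin, gave the rise with SPTLC123 siRNA, 0.71 ± 0.11 (adjusted p = 0.00707) at 1 of its 4 probe sets, 202094_at. EFNA1, an ephrin, fell by 1.04 ± 0.19 and 0.87 ± 0.19 with the 2 siRNAs. TNFAIP2 rose by 0.62 ± 0.14 with DEGS1 siRNA at 1 of its 2 probe sets, and the pentraxin gene PTX3, below the array's median, fell by 0.62 ± 0.13. Once the 3 arrays of weak 5′ signal were left out, these DEGS1 values were -0.77 (adjusted p = 0.186) for EFNA1, 0.39 (adjusted p = 0.499) for TNFAIP2 and -0.46 (adjusted p = 0.215) for PTX3. Between the siRNAs, SOD2 was 1.89 ± 0.16 higher with DEGS1 siRNA (1.88, adjusted p = 0.0250, without these arrays). XIAP, an inhibitor of caspases, was lower at 2 of its 7 probe sets, by -0.65 ± 0.10 at 243026_x_at and -0.59 ± 0.12 at 228363_at, and BIRC5 at 2 of 4, by -0.65 ± 0.11 at 202094_at and -0.58 ± 0.12 at 202095_s_at. None of these 4 differences passed without the 3 arrays, at -0.63 to -0.38. The targets listed did not share a direction, and the median change was -0.04 and -0.03. CXCL16, a chemokine outside the cluster, fell by 1.21 ± 0.16 (adjusted p = 0.00330) and 0.98 ± 0.16 (adjusted p = 0.0132) and was the one changed gene among 25 other measured chemokines. The DEGS1 value of CXCL16 was -0.74 (adjusted p = 0.129) without the 3 arrays.

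Profiles over the 9 arrays were compared by the root mean square difference of log2 levels, each after the mean of the scramble arrays was subtracted, over the probe sets of 1 gene that lay above the array's median. NKIRAS1 was nearest to SOCS5 (0.163), CLIC2 (0.172) and GJA1 (0.192), where its own root mean square deviation was 0.680. NFKBIA was nearest to ARL1 (0.0545), ADGRL1 (0.0744) and PANX1 (0.0771), against its own 0.478. For CXCL3 the nearest were IQGAP3 (0.237), KIF5C (0.245) and TCF4 (0.246), and for CXCL2 they were SPINK1 (0.256), HES1 (0.258) and MAPKAPK2 (0.267). CXCL5 at 214974_x_at was nearest to PTGR2 (0.0951), APPBP2 (0.119) and RSPRY1 (0.12). None of these nearest genes was a member, and the measure is a description over 9 arrays that share their siRNA groups.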

How the data were processed

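Total RNA of 9 Huh7 cultures was measured on Affymetrix arrays with 1 colour. The authors deposited 1 table of normalized intensity on a linear scale, 54675 probe sets by 9 arrays. The submitters' processing notes name RMA, GCRMA 2.12.1 and limma 2.14.7 without role or order, so which made the values is not given in the sources used here. Array medians ran from 27.92 to 30 and no 2 columns were identical, so no further normalization was applied. The number of arrays limits the precision.

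The deposited values were log2-transformed without a pseudocount, and the 62 Affymetrix controls were left out. GEO's platform table, which can be old, gave 41091 probe sets 1 gene symbol, 1801 several and 11721 none. Groups come from the sample titles. Differences were tested with limma 3.58.1 under R 4.3.3 (lmFit, then eBayes) in a model of 3 group means over the 9 arrays, with 6 residual degrees of freedom, two-sided tests and Benjamini-Hochberg adjustment over 54613 probe sets. Values after ± are SE of the fit. The fit was tested on simulated data.

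The members and gene lists were chosen with earlier results of these data known. The genes named are the members, the siRNA targets, up to 3 changed genes per pathway list and comparison by adjusted p, the neighbours in the chromosome 4 cluster, and the 3 nearest profiles of each changed member. Alternatives were 1 probe set per gene, averaged probe sets per gene, no dim probe sets, log2(value + 16), median centring, quantile normalization, robust eBayes with a variance trend, only the groups compared, array weights, the replicate number as a block, the actin 3′ minus 5′ difference as a covariate, an adjusted p under 0.01, and leaving out single arrays or the 3 of weak 5′ signal. Promoters come from RefSeq's table for GRCh38.p14. The identity of 2 windows is the share of identical letters in a global alignment. 1 targeted subunit was not analysed here.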

Additional observations from a re-analysis of the deposited data

How the results depend on the processing

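Over the members' values and all alternatives, 1045 stayed on their side of the threshold, 56 no longer passed, 27 passed newly and 0 called values changed sign. Values that never passed were not scored for direction. With SPTLC123 siRNA against scramble 2466 of 54613 probe sets changed, and 1493 of 19775 genes did with probe sets averaged per gene. It was 4591 probe sets with the actin covariate and 907 at an adjusted p under 0.01. Members changed were 2, and 4 with the covariate. With DEGS1 siRNA 1869 changed, and 859 did with only the 2 groups compared, 10150 with array weights, 193 without the 3 arrays of weak 5′ signal and 450 at 0.01. Members changed were 3, and 7 with array weights, 1 with the covariate, 0 without the 3 arrays (4 at an unadjusted p under 0.05 by limma) and 0 at 0.01. Between DEGS1 and SPTLC123 2017 differed, and 993 did with only the 2 groups, 9884 with array weights, 3509 with the covariate, 341 without the 3 arrays and 600 at 0.01. Members were 4, and 2 with only the 2 groups, 7 with array weights, 1 without the 3 arrays and 1 at 0.01. Leaving out single arrays gave 1166 to 3100, 491 to 9061 and 722 to 7151 probe sets in these 3 comparisons, and 2 to 3, 0 to 6 and 1 to 6 members. Without DEGS1 replicate 1, DEGS1 counts were the highest, 9061 and 7151. Among pathway probe sets the covariate gave 34 (from 17) with SPTLC123 and 6 (from 13) with DEGS1 siRNA. Without the 3 arrays it was 0 of 13 with DEGS1 siRNA and 3 of 16 between the siRNAs. These pathway counts were chosen after the data were seen. Median centring moved the share of higher calls from 58.3% to 69.4% with SPTLC123 siRNA and from 42.7% to 31.7% between the siRNAs, and leaving out the 3 arrays moved it from 53.2% to 63.7% with DEGS1 siRNA and from 42.7% to 55.4% between the siRNAs.

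The labels do not say whether same-numbered arrays were handled together. Of 9 correlations between same-numbered arrays, 3 exceeded 0.1 (range -0.49 to 0.70). These cannot settle it, since the 3 arrays of weak 5′ signal enter them too. With the replicate block 2194, 1512 and 1672 probe sets and 2, 2 and 3 members changed. Dim probe sets limit what can be said of 4 of the 18 members, and 3 arrays a group limit the rest. Except where an alternative tests fewer arrays or sets a stricter threshold, the cause of these shifts was not tested.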
